A study of Homo sapiens and Mus musculus with 27 samples.

Results

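Cytosolic ribosomal protein genes encode the protein parts of the 40S (RPS genes and RPSA) and 60S (RPL and RPLP genes) ribosomal subunits. Members were the protein-coding genes whose symbol has the form RPL or RPS with a number, plus RPLP0, RPLP1, RPLP2 and RPSA. RPS27A, whose product is a ubiquitin fusion, and pseudogenes were left out. The rule used gene names and no measured value, though it was set with earlier results of these data known. The rule also left out the first HCC1937 AMD3100 library, described below. It found 83 genes among 78932 features of the human tables, 31 of the 40S and 52 of the 60S subunit, and 84 genes among 25239 features of the mouse table. Human and mouse lists share 81 symbols.

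The series holds 27 poly(A)-enriched RNA libraries in 9 groups of 3. HCC1937, a human breast cancer line, was treated with TM or with AMD3100, each at 10 µM, or with vehicle. MDA-MB-231, another human breast cancer line, had either agent at the same 10 µM on top of bortezomib at 10 nM, or vehicle. The 4T1 tumours, of mouse mammary origin, grew in Balb/c mice. These had vehicle, or bortezomib (1 mg/kg, given every 4 days) joined by TM (0.05 mg/ml in the water they drank) or by AMD3100 (5 mg/kg at intervals of 2 days). As background, bortezomib inhibits the proteasome and AMD3100 blocks the chemokine receptor CXCR4, while TM is not spelled out in the labels. No group received bortezomib alone, so the parts played by bortezomib and its partner cannot be told apart against vehicle, and bortezomib and the line cannot be told apart between HCC1937 and MDA-MB-231. Treatment times, and whether replicates came from separate cultures or animals, are not stated beyond the words bio rep, so p-values measure the spread between these libraries, which may in part be technical.

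Each ribosome holds 1 copy of most of these proteins, and the genes are known for being expressed together at a high level in dividing cells. Their mRNAs start with a run of pyrimidines, the 5′ terminal oligopyrimidine tract, through which growth signalling controls their translation. Surplus ribosomal proteins that are not built into subunits are degraded by the proteasome. A few members are paralogs of another member, such as RPL22L1 of RPL22 and RPS27L of RPS27, and RPS27L is also a known p53 target gene.

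The start-site windows show members with a pyrimidine run at or near the annotated start and members without one. Each line below runs 5′ to 3′ from 10 bases before to 20 bases from the annotated start (RefSeq, GRCh38.p14). Capitals mark the longest run of C or T where it is at least 8 bases long. In RPL9 the run begins downstream of the annotated start. The first 5 genes are members with some of the larger changes described below, and the others are paralog pairs and RPL7L1.
RPL39: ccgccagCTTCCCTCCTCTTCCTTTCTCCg
RPL18: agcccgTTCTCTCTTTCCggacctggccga
RPL9: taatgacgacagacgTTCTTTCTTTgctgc
RPL7A: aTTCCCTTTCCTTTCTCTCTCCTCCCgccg
RPL14: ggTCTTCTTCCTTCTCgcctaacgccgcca
RPS27: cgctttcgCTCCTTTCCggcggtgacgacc
RPS27L: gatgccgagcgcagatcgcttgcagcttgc
RPL26: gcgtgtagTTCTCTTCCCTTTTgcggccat
RPL26L1: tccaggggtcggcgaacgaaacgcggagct
RPL22: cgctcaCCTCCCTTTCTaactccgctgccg
RPL22L1: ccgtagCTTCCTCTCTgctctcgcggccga
RPL7L1: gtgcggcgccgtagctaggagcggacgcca
These windows lie at chrX:119791611-119791640 (RPL39, minus strand), chr19:48619159-48619188 (RPL18, minus), chr4:39458903-39458932 (RPL9, minus), chr9:133348208-133348237 (RPL7A, plus) and chr3:40457329-40457358 (RPL14, plus). The pair RPS27 and RPS27L lies at chr1:153990752-153990781 (plus) and chr15:63157458-63157487 (minus). RPL26 and RPL26L1 lie at chr17:8383174-8383203 (minus) and chr5:172958719-172958748 (plus). RPL22, RPL22L1 and RPL7L1 lie at chr1:6199576-6199605 (minus), chr3:170870176-170870205 (minus) and chr6:42879606-42879635 (plus).

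A promoter sequence of 300 bases was listed for 66 of the 83 human members. A run of at least 8 C or T within 20 bases of a listed start was found in 56 of these 66 (84.8%), against 3330 of 15235 other protein-coding genes (21.9%). RPS27L, RPL26L1 and RPL7L1 were among the 10 without such a run, and RPL22L1 had one of 10 bases. The ETS core CGGAAG, searched on both strands over the whole promoter, was present in 41 of 66 members (62.1%) and in 29.9% of the other genes. The YY1 core AAGATGGC (both strands) was present in 10.6% and 4.7%, the palindrome CTCGCGAG in 9.1% and 1.8%, and TATAAA (both strands) in 10.6% and 12.4%. The pyrimidine word CTTTCC on the sense strand, which can lie within the run, was present in 39.4% of members and 18.1% of the other genes. A match describes letters in the window only.

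The smallest and largest library totals were 38189932 and 43973262 counts for HCC1937 (libraries used), 40389469 and 50283398 for MDA-MB-231, and 38407536 and 50735374 for 4T1. The first HCC1937 AMD3100 library stood apart, with 19.9% of its counts on mitochondrially encoded genes against 10.5 to 11.6% in the other HCC1937 libraries, and was left out by the rule, so that group has 2 libraries. One 4T1 vehicle library, replicate 1, is labelled as human and as MDA-MB-231 in other fields, while its title and its column in the mouse table say 4T1. Epithelial markers summed to 1890 to 2539 CPM (counts scaled to a common library size) in HCC1937, 527 to 813 CPM in MDA-MB-231 and 1039 to 2506 CPM in 4T1, with 0 to 3 of the 8 markers at 0 in the human libraries. T cell markers summed to at most 1.015 CPM in the human libraries and to 18.8 to 453 CPM in the tumours, whose RNA includes host cells. All CPM below are after TMM scaling.

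Ribosomal protein genes took between 4.22% and 13.01% of all counts in a library. In HCC1937 the share was 8.63%, 8.34% and 8.45% in the vehicle libraries, 7.99%, 7.99% and 7.54% with TM, and 8.73% and 8.81% with AMD3100. The TM libraries lay below all vehicle libraries, and the AMD3100 libraries lay above them. In MDA-MB-231 the share was 9.59%, 9.52% and 9.59% with vehicle, 12.7%, 13.01% and 11.65% with bortezomib and TM, and 11.2%, 10.99% and 10.7% with bortezomib and AMD3100, with no overlap between any of the groups. In 4T1 tumours it was 4.52%, 5.61% and 5.04% with vehicle, 4.22%, 5.10% and 4.51% with bortezomib and TM, and 4.65%, 4.49% and 4.69% with bortezomib and AMD3100. All 4T1 groups overlapped. In the left-out AMD3100 library of HCC1937 the share was 6.16%.

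**Figure D1:**
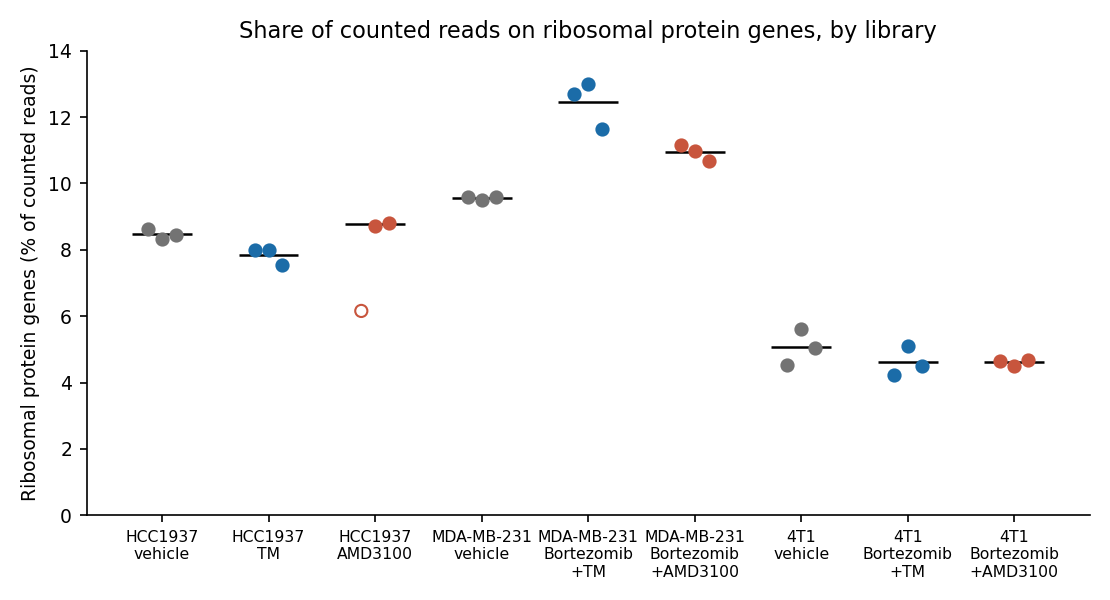
Percent of counted reads on ribosomal protein genes (y axis) in each library of the 9 groups (x axis). Points are libraries, the open point is the HCC1937 AMD3100 library left out of the fits, and lines are means of the libraries used. MDA-MB-231 rises from 9.56% with vehicle to 12.5% and 10.9% in the treated groups, and the 4T1 groups overlap.

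In MDA-MB-231 the 40S genes took 3.56% ± 0.0191 (SD, n = 3) of counts with vehicle and 4.63% ± 0.288 (SD, n = 3) with bortezomib and TM. The 60S genes took 6.0% ± 0.0523 (SD, n = 3) and 7.82% ± 0.426 (SD, n = 3). In HCC1937 the 40S share was 3.21% ± 0.0586 (SD, n = 3) with vehicle and 3.01% ± 0.0879 (SD, n = 3) with TM, and the 60S share was 5.26% ± 0.0881 (SD, n = 3) and 4.83% ± 0.170 (SD, n = 3).

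Levels differed widely among members. Per kilobase of the principal mRNA, RPS2, a 40S protein near the mRNA entry, was highest in HCC1937 vehicle cells at 3996 ± 82.3 RPKM (SD, n = 3), followed by RPL8, of the 60S core, at 3730 ± 196 (SD, n = 3) and RPS15 at 3422 ± 136 (SD, n = 3). The gaps between these 3 genes were larger than the SD of each. In MDA-MB-231 vehicle cells RPS2 stood at 3828 ± 448 RPKM and RPLP0, the base of the P stalk, at 3738 ± 260. RPSA, the laminin receptor protein of the 40S subunit, stood at 3708 ± 181 (each SD, n = 3). These genes did not differ beyond their spread. The lowest tested members in both lines included RPL3L, a muscle paralog of RPL3, at 0.102 and 0.00576 RPKM. RPL17 stood at 6.88 RPKM in HCC1937 and 3.74 in MDA-MB-231, RPS10 at 14.7 and 6.33, and RPL36A at 15.1 and 3.72. For these 3 genes the human tables also list a read-through feature that spans the gene, and all 3 of those features have 0 counts, so the counting of these genes is uncertain. RPL10L, a testis paralog of RPL10, had 0 counts in every human library used. In the mouse table Rpl10l and Rpl26 had 0 counts, and Rps27 had 25 to 77 counts a library. Where a member has pseudogene copies or a paralog, shared reads may have been lost, so levels between genes are less certain than changes of 1 gene.

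Most ribosomal protein genes of HCC1937 were lower with TM, by a small amount. Of 82 members tested, 58 fell and 4 rose at an adjusted p below 0.05 (edgeR quasi-likelihood test, Benjamini-Hochberg over all 20398 genes). Of all genes tested 21.4% were called lower and 19.4% higher. The median member stood at -0.15 on the log2 scale, a ratio of 0.901, against 0.00 for all genes. In the 40S subunit 20 of 31 fell and 3 rose, and in the 60S subunit 38 of 51 fell and 1 rose.

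The largest fall was in RPL7L1, a paralog of RPL7. Its vehicle libraries stood at 202, 198 and 201 CPM and the TM libraries at 122, 128 and 120 CPM, a log2 change of -0.70 (SE 0.0425, adjusted p = 2.47e-13). All 3 TM libraries were below all vehicle libraries. RPL22, a 60S protein that binds RNA outside the ribosome too, fell from 130, 129 and 132 CPM to 95.1, 94.5 and 94.9 CPM (log2 -0.46). RPL7A and RPL14, both 60S proteins, fell by 0.39 and 0.38 on the log2 scale. RPLP0 fell from 2339, 2282 and 2305 CPM to 1853, 1893 and 1857 CPM, while the other P stalk proteins did not pass the test (RPLP1 log2 0.07, RPLP2 log2 0.05). RPL5 and RPL11, which with 5S rRNA form the particle that can bind MDM2, fell by 0.20 and 0.24 on the log2 scale.

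RPS27L rose the most. It stood at 96.3, 96.9 and 95.1 CPM with vehicle and at 174, 163 and 158 CPM with TM, a log2 change of 0.78 (SE 0.0464, adjusted p = 1.56e-13), and the groups did not overlap. Its partner RPS27 stood at 586, 512 and 551 CPM with vehicle and 624, 599 and 449 CPM with TM, and these groups overlapped. RPL36A rose by 0.35 and RPS9 by 0.11 on the log2 scale. RPL36A had 216 to 384 counts a library, under the counting limit named above.

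The fit estimates the spread from all HCC1937 libraries. Scaled by total counts only, 41 fell and 8 rose, with a median of -0.10 (log2). With the left-out AMD3100 library put back, 1 member rose and 4 fell in TM against vehicle, while the median stayed at -0.15. With each library of the compared groups left out in turn, 47 to 63 members were called.

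**Figure D2:**
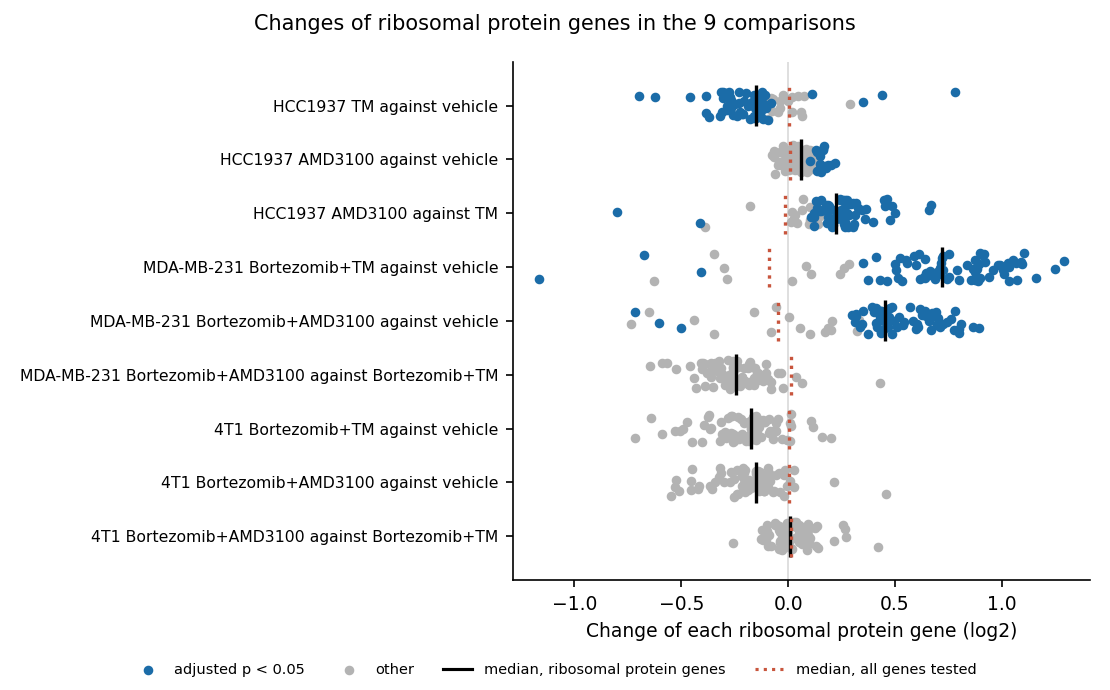
Log2 change (x axis) of each tested ribosomal protein gene in the 9 comparisons (y axis), RPL3L left out. Blue points passed an adjusted p below 0.05, black lines are the members' medians (from -0.25 to 0.72) and dotted lines the medians of all genes tested. Most members lie left of the dotted line with TM in HCC1937 and right of it in both treated MDA-MB-231 groups, and no 4T1 point is blue.

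Fewer ribosomal protein genes of HCC1937 were called with AMD3100 alone. Of 82 members, 16 rose and 0 fell (edgeR), against 5.39% of all genes called higher and 2.76% called lower. At an unadjusted p below 0.05, 28 members differed, of 4259 genes in all among the 20398 tested. The median was 0.06 (log2), with 0.01 for all genes. All 3 P stalk genes rose: RPLP0 by 0.17, RPLP1 by 0.19 and RPLP2 by 0.20 (log2). RPLP2, an acidic stalk protein that recruits elongation factors, stood at 268, 255 and 268 CPM with vehicle and at 300 and 305 CPM with AMD3100. RPS9 rose the most, by 0.22 (SE 0.0429, adjusted p = 0.00187), from 886, 793 and 854 CPM to 946 and 1021 CPM. The 16 rises lay between 0.10 and 0.22. RPS2 rose by 0.18, RPL3, of the peptidyl transferase centre, by 0.15 and RPSA by 0.17. With the left-out library put back, 0 members passed and the median was -0.07. Without AMD3100 replicate 3, 3 members passed. Without vehicle replicate 2 it was 7, and without vehicle replicate 3 it was 9.

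Set against TM, AMD3100-treated HCC1937 cells had higher levels of most members: 65 were higher and 2 lower of 82 (edgeR), with 19.7% of all genes called higher and 16.8% lower. This comparison shares the TM and AMD3100 libraries with those above. RPL7L1 stood at 193 and 198 CPM with AMD3100 against 122, 128 and 120 CPM with TM, a log2 change of 0.66 (SE 0.0468, adjusted p = 6.79e-12). RPL22 was higher by 0.50, RPL7A by 0.49 and RPLP0 by 0.48. RPS27L was lower by 0.80 (92.5 and 96.6 CPM with AMD3100), a log2 change of -0.80. The median was 0.22 (log2) and 0.13 when libraries were scaled by total counts only, which moves the median of all genes to -0.11. The calls were then 46 higher and 3 lower. With the left-out library put back, 5 were called higher and 1 lower.

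In MDA-MB-231, most ribosomal protein genes were higher with bortezomib and TM. Of 82 tested, 69 rose and 3 fell (edgeR, over 16498 genes), against 24.1% of all genes called higher and 27.6% called lower. The median member changed by 0.72 (log2), a ratio of 1.65, while the median of all genes was -0.09. In the 40S subunit 27 of 31 rose and 0 fell, and in the 60S subunit 42 of 51 rose and 3 fell. TMM factors were 1.14 to 1.25 in the vehicle libraries and 0.874 to 0.945 in the treated ones. Scaled by total counts only, a choice added after seeing the data, the median of all genes moved to -0.51 and that of the members to 0.29, with 49 called higher and 8 lower. The mitochondrially encoded genes took 3.94 to 4.06% of counts with vehicle and 2.67 to 3.25% in the treated libraries, and rRNA features 0.207 to 0.248% and 0.305 to 0.364%, without overlap, and their part in the result was not tested.

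RPL9, a 60S protein near the stalk base, changed the most among well-counted members. It stood at 461, 411 and 424 CPM with vehicle and at 1232, 1127 and 808 CPM with bortezomib and TM, a log2 change of 1.29 (SE 0.136, adjusted p = 1.12e-05). RPL18, also of the 60S subunit, went from 389, 423 and 382 CPM to 1101, 996 and 742 CPM (log2 1.25). The third treated library was the lowest of its group for both genes, yet lay above every vehicle library. RPL39, a tiny protein lining the exit tunnel, rose from 292, 227 and 268 CPM to 567, 633 and 558 CPM (log2 1.16). RPS21 and RPL15 rose by 1.106 and 1.095. RPLP0 rose from 4676, 5037 and 4384 CPM to 9411, 9770 and 7887 CPM (log2 0.94). All 4 small zinc finger proteins, RPS27, RPS29, RPL37 and RPL37A, rose, with a median of 1.00 (log2).

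Some members moved less. RPS6, the S6 kinase substrate, rose by 0.37 (log2), from 655, 607 and 631 CPM to 706, 852 and 897 CPM, but had -0.04 and did not pass with total counts only. RPL5 rose by 0.50, whereas its partner RPL11 did not pass the test at 0.11 (SE 0.197), with 387, 441 and 473 CPM against 343, 412 and 646 CPM. RPL22 stood at 64.9, 62.0 and 73.7 CPM against 57.8, 62.7 and 82.9 CPM, with overlapping groups. RPS4X, the X-encoded 40S protein, rose by 0.60 and RPL10, needed for the final step of 60S maturation, by 0.89.

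The 3 members that fell were RPL36A, RPL7L1 and RPL26L1. Only 1 fell without Bortezomib+TM replicate 1, without Bortezomib+TM replicate 2 or at a threshold of 0.01. RPL7L1 stood at 405, 348 and 406 CPM with vehicle and at 199, 260 and 269 CPM with treatment (log2 -0.67, SE 0.119, adjusted p = 0.000554). RPL26L1, a paralog of RPL26, stood at 30.4, 31.4 and 31.2 CPM and at 22.2, 22.3 and 25.6 CPM (log2 -0.41). RPL26 itself rose by 0.73, from 49.2, 44.0 and 53.6 CPM to 79.2, 84.3 and 79.1 CPM. RPL36A had 91, 56 and 111 counts with vehicle and 26, 23 and 41 with treatment. RPL3L also passed the test as higher, on 0, 1 and 1 counts with vehicle against 18, 9 and 12 with treatment, and with so few counts no fold is given.

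With bortezomib and AMD3100 most members were also higher in this line. Of 82 members, 63 rose and 3 fell (edgeR), against 22.3% of all genes called higher and 24.2% lower. The median was 0.45 (log2), a ratio of 1.37, with -0.05 for all genes. With total counts only the median of all genes was -0.41 and that of the members 0.09, with 24 called higher and 9 lower. The vehicle libraries are those of the comparison above.

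RPL18 rose from 389, 423 and 382 CPM to 757, 698 and 767 CPM (log2 0.90, SE 0.130, adjusted p = 0.000158). RPS20, of the 40S head, rose by 0.81, and RPLP1 and RPL13A by 0.80 each. In each of these 4 genes all treated libraries lay above all vehicle libraries. RPS27 rose by 0.35 but had -0.02 with total counts only, and its groups overlapped. RPL22L1 fell from 44.0, 30.2 and 41.9 CPM to 23.8, 27.9 and 19 CPM (log2 -0.72, SE 0.179, adjusted p = 0.00621). RPL7L1 and RPL26L1 fell by 0.61 and 0.50. RPL3L had 4, 16 and 6 counts.

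Between the bortezomib partners in MDA-MB-231, no gene of the 16498 tested passed the adjusted threshold, so 0 members and 0% of all genes were called higher or lower (edgeR). At an unadjusted p below 0.05, 41 members differed, of 1464 genes in all. DESeq2 called 3 members. The median member was -0.25 (log2) with AMD3100 against TM and 0.01 for all genes, and 79 of 82 members had a negative change. In 39 members all AMD3100 libraries lay below all TM libraries, a pattern that 6.56% of all genes showed. RPS27 stood at 591, 597 and 456 CPM with AMD3100 and at 873, 928 and 770 CPM with TM (log2 -0.64, SE 0.128, adjusted p = 0.344). RPL9 stood at 693, 726 and 721 CPM against 1232, 1127 and 808 CPM. In both genes the groups did not overlap. Without Bortezomib+TM replicate 3, the library with the lowest share of its group, 15 members passed and all were lower. How many of all genes passed in that fit and with DESeq2 is not given here, so neither count is read as particular to the members.

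The partner difference ran in opposite directions in the human lines. One fit over the 17 human libraries, added after seeing this, tested the AMD3100 arm against the TM arm in MDA-MB-231 minus the same in HCC1937. It called 49 of 82 members lower and 0 higher (edgeR), while 4.99% of 22621 genes were called lower and 3.26% higher. The median difference was -0.50 (log2), against 0.04 for all genes. RPLP0 differed by -0.80 (SE 0.123, adjusted p = 0.000485) and RPL3 by -0.64. The lines also differ in bortezomib, so line and bortezomib cannot be told apart. Put back, the left-out AMD3100 library reduced the calls to 10, and total counts only gave 29 lower and 1 higher. Leaving out AMD3100 replicate 2 or 3 or TM replicate 3 of HCC1937 gave 29, 27 and 31, and the range over all single libraries was 27 to 69.

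**Figure D3:**
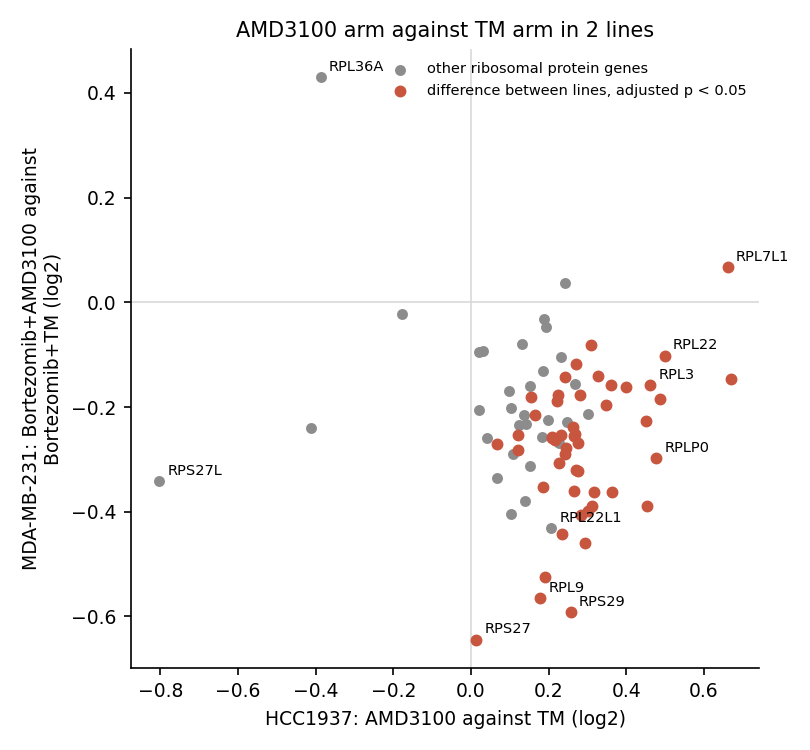
Log2 change of each ribosomal protein gene in the AMD3100 arm against the TM arm, in HCC1937 (x axis, no bortezomib) and in MDA-MB-231 (y axis, with bortezomib), RPL3L left out. Red points are genes whose difference between the lines passed an adjusted p below 0.05. Most points lie right of and below 0, with RPLP0 among several points far to the right and RPS27 lowest.

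HCC1937 and MDA-MB-231 share no library, so the TM-arm results of the lines can be set side by side, though one lacks bortezomib. Of the 58 members that fell with TM in HCC1937, 53 rose with bortezomib and TM in MDA-MB-231, which is 91.4% of the first list and 76.8% of the 69 in the second. Of the 24 other members, 16 (66.7%) rose there too, and 84.1% of all 82. Over all 14433 genes tested in both lines, 18.4% of those lower in the first comparison were higher in the second, against 25.3% of all. RPL7L1 was lower in both lines. RPS9 was higher in both. RPL7A had log2 changes of -0.39 and 0.64. The 16 members that rose with AMD3100 in HCC1937 were among the 63 that rose with bortezomib and AMD3100 in MDA-MB-231, as were 47 of the 66 others (71.2%). Over all genes tested in both lines, 34.5% of those higher in the first comparison were higher in the second, against 23.5% of all.

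**Figure D4:**
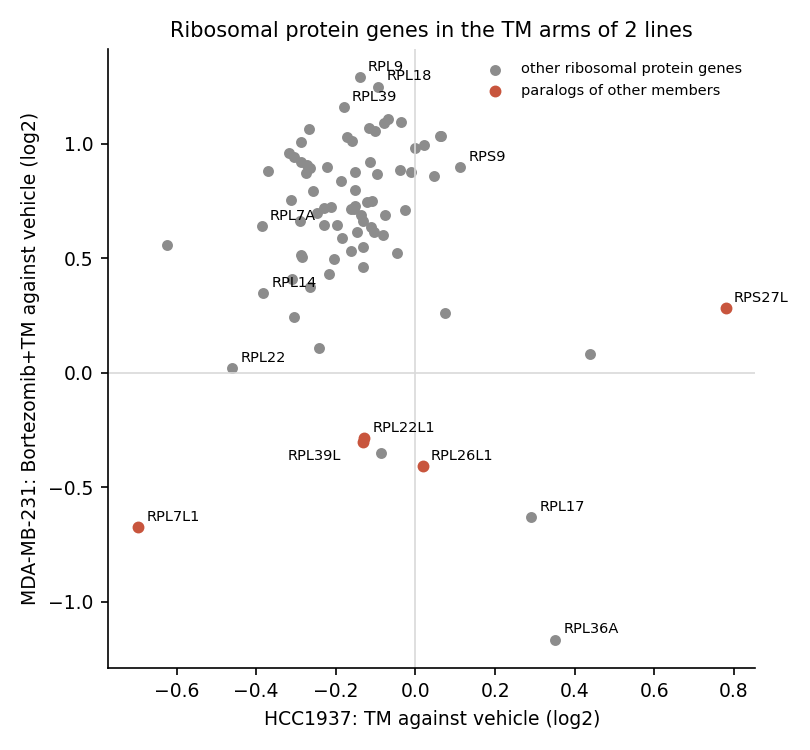
Log2 change of each ribosomal protein gene with TM against vehicle in HCC1937 (x axis) and with bortezomib and TM against vehicle in MDA-MB-231 (y axis), RPL3L left out. Red points are paralogs of other members. Most genes sit at the upper left, while RPL7L1 is low on both axes and RPS27L is highest on the x axis.

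Of 6 paralogs tested in MDA-MB-231, 1 rose (RPL3L, on few counts) and 2 fell with bortezomib and TM, with a median of -0.29. Of all genes 24.1% were called higher and 27.6% lower, and the paralog counts lie near these shares. Of the 76 other members 68 rose, with a median of 0.73. With bortezomib and AMD3100, 1 paralog rose and 3 fell, with a median of -0.42, beside 22.3% and 24.2% of all genes. Of the other members 62 of 76 rose, with a median of 0.47. RPL39L, a paralog of RPL39, stood at 20.2, 25.8 and 22.1 CPM with vehicle and at 17.9, 20.9 and 16.6 CPM with bortezomib and TM (log2 -0.30), and did not pass. Counted per mRNA length, RPL26L1 made up 34.4% ± 2.41 (SD, n = 3) of the RPL26 pair with vehicle, 19.3% ± 1.65 with bortezomib and TM and 24.4% ± 0.964 with bortezomib and AMD3100. RPL22L1 made up 35.3% ± 3.75 of its pair with vehicle and 26.1% ± 0.814 with bortezomib and AMD3100. With bortezomib and TM it made up 24.8 to 34.8%, overlapping the 31.6 to 39.1% of vehicle. In HCC1937, RPS27L made up 0.907 to 1.04% of its pair with vehicle and 1.49 to 1.93% with TM. In MDA-MB-231 it made up 0.406 to 0.456% with vehicle, 0.246 to 0.3% with bortezomib and TM and 0.319 to 0.333% with bortezomib and AMD3100. In HCC1937 RPL22L1 made up 42.7 to 45.3% with vehicle and 48.6 to 51.6% with TM, where RPL22 fell by 0.46 and RPL22L1, whose libraries overlapped, by 0.13 (log2). With AMD3100 in HCC1937, RPL22L1 made up 44.2 to 45.9% and RPS27L 0.908 to 0.949% of their pairs, both overlapping vehicle. RPL22L1 with bortezomib and TM also overlapped vehicle, as given above. The other treated groups whose percentages are given here did not overlap vehicle. The level of a percentage depends on the mRNA lengths taken, which are the same in every library.

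**Figure D5:**
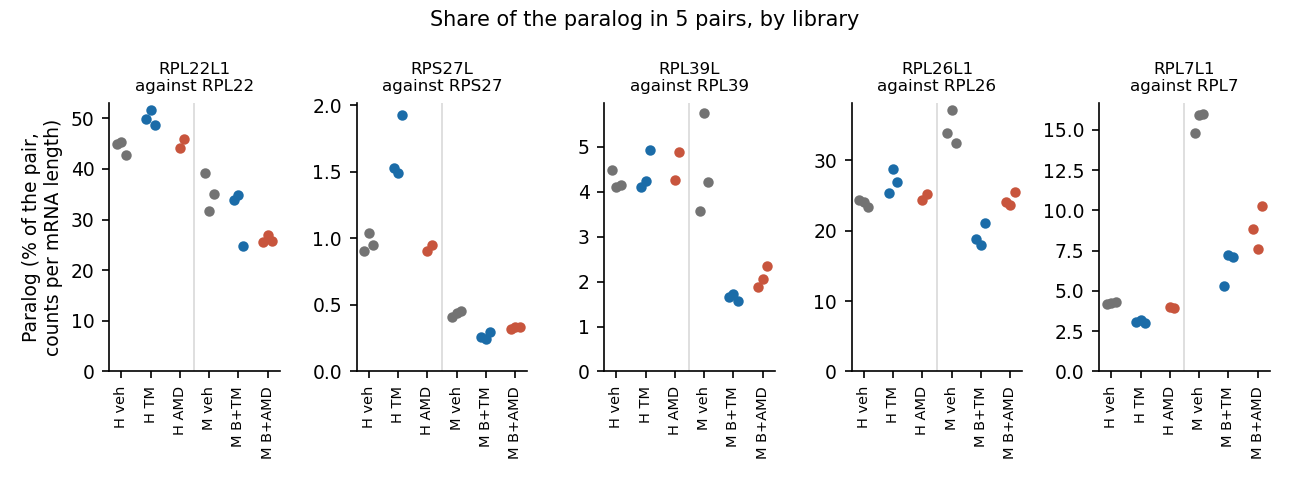
Percent of a gene pair carried by the paralog, counted per mRNA length (y axes, each from 0), in each library of HCC1937 (H) and MDA-MB-231 (M) with vehicle (veh), TM, AMD3100 or these with bortezomib (B+). RPS27L rises with TM in HCC1937, and RPL26L1 drops from 34.4% to 19.3% and 24.4% in MDA-MB-231.

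The calls were counted by promoter class. With a run of at least 8 pyrimidines, 40 of 56 members fell and 2 rose with TM in HCC1937, and 48 rose and 1 fell with bortezomib and TM in MDA-MB-231. Of the 9 tested without such a run, 7 fell and 1 rose, and 6 rose and 2 fell. Over all genes tested, 21.4% were called lower and 19.4% higher in the HCC1937 comparison. In the MDA-MB-231 comparison 24.1% were called higher and 27.6% lower. The medians were -0.15 and -0.23 (log2) in HCC1937 and 0.71 and 0.60 in MDA-MB-231. Both members that fell in the second class were RPL26L1 and RPL7L1. Across the 82 members the change in MDA-MB-231 had a Spearman rank correlation of -0.03 with mRNA length and 0.36 with mean level, given as a description of genes that share libraries. Other protein-coding genes with mRNAs under 1000 bases had a median of 0.17 there, with 236 of 656 called higher and 122 lower. Their median was 0.03 with bortezomib and AMD3100 against vehicle and -0.16 between the partners, where the members stood at -0.25. In HCC1937 it was 0.08 with AMD3100 against vehicle, where the members stood at 0.06, and 0.10 with AMD3100 against TM. Ribosomal protein pseudogenes, whose reads can come from the members, had a median of 0.70 with bortezomib and TM against vehicle in MDA-MB-231.

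In 4T1 tumours no gene was called in any comparison, so 0 of 80 members and 0% of all genes were higher or lower (edgeR, 15846 genes). With bortezomib and TM the median member was -0.17 (log2) and 13 members, of 688 genes, had an unadjusted p below 0.05. In 18 members all treated libraries lay below all vehicle libraries, as in 5.01% of all genes. With bortezomib and AMD3100 the median was -0.15, 8 members of 1144 genes had an unadjusted p below 0.05, and 15 members lay wholly below vehicle, as did 7.34% of all genes. Between the partners the median was 0.01 and 0 members, of 454 genes, reached an unadjusted p below 0.05. DESeq2 called 0 members in all 3.

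Rps28, a small 40S head protein, had the smallest p of the members. It stood at 260, 370 and 256 CPM with vehicle, at 168, 201 and 219 CPM with bortezomib and TM (log2 -0.59, SE 0.171, adjusted p = 0.887) and at 186, 197 and 231 CPM with bortezomib and AMD3100 (log2 -0.53). Rpl37 stood at 412, 607 and 423 CPM, at 269, 358 and 373 CPM and at 297, 332 and 370 CPM. In both genes each treated library lay below each vehicle library. Rps28 and Rpl37 were chosen after their values were seen. Rpl39 stood at 264, 430 and 225 CPM with vehicle, 188, 199 and 203 CPM with bortezomib and TM, and 187, 202 and 238 CPM with bortezomib and AMD3100. Rps6 stood at 800, 1000 and 877 CPM against 761, 1059 and 871 CPM, with log2 0.01. Rplp0 had log2 -0.14 in both treated groups, and Rps27l -0.09 and -0.21, with overlapping libraries.

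The tumours also differed in host cell markers. B cell markers summed to 14.2 to 122 CPM with vehicle, 7.14 to 482 CPM with bortezomib and TM and 7.84 to 680 CPM with bortezomib and AMD3100, with none of the 6 markers at 0 in any library. Epithelial markers summed to 1631 to 2506 CPM, 1145 to 2089 CPM and 1039 to 1331 CPM. Macrophage markers summed to 1958 to 2091 CPM with vehicle, 1021 to 1754 CPM and 1286 to 1665 CPM, each treated library below each vehicle library, with none of the 7 markers at 0. Their part in the result was not tested, and fewer cells of a type and less RNA per cell cannot be told apart. Without the vehicle library labelled as human elsewhere, the medians were -0.26 and -0.24, and without vehicle replicate 2 they were -0.10 and -0.09.

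Other genes of the ribosome pathway were taken from fixed lists. Their counts stand beside 19.4% of all genes higher and 21.4% lower with TM in HCC1937, and 24.1% and 27.6% with bortezomib and TM in MDA-MB-231, and a list near these shares shows nothing of its own. With TM in HCC1937, 0 of 18 elongation factor and other TOP mRNA genes rose and 13 fell, among them HNRNPA1 at -1.04 and NPM1, a nucleolar chaperone, at -0.41 (log2). With bortezomib and TM in MDA-MB-231, 13 of 18 rose and 1 fell, among them EIF3L at 0.97 and EEF1B2, an elongation factor subunit, at 0.97. Ribosome biogenesis factors had 5 higher and 28 lower of 55 in HCC1937, with BOP1, a 60S processing factor, at -0.72, and 20 higher and 12 lower in MDA-MB-231, where RRS1, which brings the 5S particle to the 60S precursor, stood at -2.18. Mitochondrial ribosomal protein genes had 10 higher and 33 lower of 77 in HCC1937, with MRPL24 at -0.81, and 35 higher and 8 lower of 76 in MDA-MB-231, with MRPL22 at 0.99. Initiation factors had 4 higher and 12 lower of 25 with TM in HCC1937 and 13 higher and 1 lower in MDA-MB-231. EIF1, which guards start codon choice, rose in both, by 0.46 and 1.52. RNA polymerase I and its factors had 4 higher and 2 lower of 20 in HCC1937 and 7 higher and 4 lower in MDA-MB-231, where UBTF, which opens rDNA to the polymerase, stood at -0.81.

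Ribosomal proteins outside the naming rule had 0 higher and 3 lower of 5 in HCC1937 and 5 of 5 higher in MDA-MB-231, where FAU, a fusion that yields a 40S protein, rose by 1.07. RACK1, the 40S scaffold, fell by 0.19 in HCC1937. Chaperones and importers of ribosomal proteins had 2 higher and 9 lower of 14 in HCC1937, with IPO9, an importer, at -0.72, and 4 higher and 4 lower of 15 in MDA-MB-231, with TSR2, the RPS26 escort, at 1.21. Ribosome quality control genes had 4 higher and 7 lower of 21 in HCC1937, with HUWE1, a ligase for surplus ribosomal proteins, at -0.95, and 10 higher and 5 lower in MDA-MB-231, with PELO, which rescues stalled ribosomes, at 1.61. The snoRNA host genes had 5 higher and 2 lower of 12, and 6 higher and 2 lower with GAS5 at 1.03. Genes that control ribosome supply had 10 higher and 9 lower of 30 in HCC1937, with MYC at -0.75, and 14 higher and 7 lower of 29 in MDA-MB-231, with ATF4, the effector of eIF2 kinases, at 2.35. Of the MDM2 and p53 target genes 13 of 16 rose and 1 fell with TM in HCC1937, with GDF15 at 4.14 and CDKN1A, a cyclin kinase inhibitor, at 3.26, and 5 rose and 5 fell in MDA-MB-231. In 4T1 none of these lists had a called member.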

How the data were processed

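Poly(A)-enriched RNA was sequenced in 27 samples, and 26 libraries were used here. The authors deposited raw counts per gene in 1 table per model, and a gene length column of another unit beside the human counts, per the file headers. The submitters' processing notes name featureCounts 2.0.1, MultiQC 1.11 and the builds GRCh38 and GRCm38. The aligner, annotation and strand setting are not given in the sources used here.

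Human IDs were matched to symbols and mRNA lengths with GENCODE 29. Members and lists were chosen with earlier results of these data known. Each model was fitted with edgeR 4.0.16 (R 4.3.3): low-count filter, TMM scaling, 1 model over its 3 groups, quasi-likelihood test, Benjamini-Hochberg over all genes tested, threshold 0.05. The common biological coefficient of variation was 0.0749 for HCC1937, 0.204 for MDA-MB-231 and 0.316 for 4T1. On simulated counts with known changes, 2-fold changes were recovered at 100%, 73% and 15% and 1.5-fold changes at 98%, 30% and 0% for the TM-arm comparison of these models. Alternatives were DESeq2 1.42.0, limma 3.58.1 with voom, other scalings, no filter, the replicate number as a block, the compared groups alone, single libraries left out, and a threshold of 0.01. RPKM uses the median length of the principal mRNAs. Features without a name hold 0.197% of HCC1937 and 0.0857% of MDA-MB-231 counts. The mouse table has no lengths, so levels between mouse genes were not compared. Named members are the 5 largest called rises and falls per comparison with a mean of at least 1 CPM, the 3 highest and lowest per length, and a fixed set with RPLP0, RPL3, RPL5, RPL11, RPS6, RPSA, RPS4X, RPL10 and the paralog pairs. From each other list at most 2 called genes with the smallest p are named. Some members and their values are counted in the totals and not reported here by name.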

Additional observations from a re-analysis of the deposited data

Results flagged for a closer look

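The AMD3100 arm against the TM arm differed between the human lines in a test of the difference itself: 49 members were called lower in MDA-MB-231 minus HCC1937 (edgeR, 1 fit over the 17 human libraries). In HCC1937 each AMD3100 library used had a larger share of counts on ribosomal protein genes than each TM library. The left-out AMD3100 library, at 6.16%, lay below each TM library, and with it kept the joint fit had 10 calls. In MDA-MB-231 each AMD3100 library had a smaller share than each TM library.

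For several members named in this text all treated libraries lay above vehicle in MDA-MB-231 and all lay below vehicle in 4T1. This difference between the models was not tested. With bortezomib and TM these were RPL39 (log2 1.16 in MDA-MB-231 and -0.64 in 4T1), RPS21 (1.106 and -0.36) and RPS27 (0.99 and -0.72, on 28 to 77 counts a library in 4T1). In the same arm they were also RPL37 (0.91 and -0.53), RPS28 (1.01 and -0.59) and RPS29 (1.005 and -0.40). With bortezomib and AMD3100 they were RPL7A (0.46 and -0.23), RPSA (0.63 and -0.11), RPL37 (0.52 and -0.53) and RPS28 (0.60 and -0.53). None of the 4T1 values passed the adjusted threshold. Among all members the pattern appeared in 17 with bortezomib and TM and in 11 with bortezomib and AMD3100, of 77 tested in both, which is 22.1% and 14.3%. Over all 10850 symbols tested in both it appeared in 1.65% and 3.0%.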

How the results depend on the processing

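The calls in HCC1937 rest on leaving out AMD3100 replicate 1. With it kept, TM against vehicle had 5 called members, AMD3100 against vehicle 0 and AMD3100 against TM 6. In the second comparison RPS9 (log2 -0.13), RPLP2 (-0.14), RPLP1 (-0.028), RPS2 (-0.13) and RPL3 (-0.0215) then turned sign, as did RPL11 (-0.0327) and RPL26 (-0.0679) in the third, and the joint fit had 10 calls. With total counts only, added after seeing the data, AMD3100 against vehicle had 10 calls, Bortezomib+AMD3100 against vehicle 33, and the joint fit 30. RPS6 with Bortezomib+TM (-0.0444) and RPS27 with Bortezomib+AMD3100 (-0.0159) turned sign. A threshold of 0.01 left 9 calls for AMD3100 against vehicle. Between the MDA-MB-231 partners (0 calls) 4 passed without the low-count filter and 3 with DESeq2.

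With each library left out in turn, calls ranged from 47 to 63 (HCC1937 TM against vehicle), 3 to 15 (AMD3100 against vehicle), 54 to 63 (AMD3100 against TM), 70 to 71 (Bortezomib+TM against vehicle in MDA-MB-231), 57 to 67 (Bortezomib+AMD3100 against vehicle), 0 to 15 (MDA-MB-231 partners), 27 to 69 (joint fit) and 0 to 0 in 4T1. RPS27 in AMD3100 against TM ranged from -0.14 to 0.0814, and was -0.14 without HCC1937 TM replicate 3. Among all values that count no calls, 2438 alternatives kept direction and side, 100 lost and 21 gained a call, 17 moved and 10 reversed, where a gene without a call was given no direction.

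The labels do not say whether the replicate numbers pair the samples. Deviations of same-numbered libraries correlated between -0.468 and 0.597. This cannot decide the question, because libraries of unlike number were not compared. With the replicate block, calls were 59, 13 and 67 in HCC1937, 71, 60 and 0 in MDA-MB-231 and 0 in each 4T1 comparison. At this depth and spread, 4T1 changes of 2-fold or less were mostly not detectable, as 15% of simulated 2-fold changes were recovered. The cause of the other differences was not tested.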
